A study of Mus musculus with 21 samples.

Results

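Oxidative phosphorylation subunits are the nuclear-encoded proteins of the 5 complexes of the inner mitochondrial membrane that turn reducing power into ATP. They were taken here as the genes whose symbol begins with the names of these subunits (Nduf, Sdh, Uqcr, Cox or Atp5 followed by a subunit letter or number). Of the 22180 genes with a probe set naming them alone, 80 met this rule. They comprised 31 subunits of complex I, 4 of complex II, 7 of complex III, 19 of complex IV, 17 of complex V and 2 pseudogenes (Atp5c1-ps and Uqcrh-ps1), so that 78 encode subunits. Ndufa4 and its relative Ndufa4l2 carry a complex I name and were counted with complex IV, where the Ndufa4 protein is now placed. A further 9 symbols of this kind were left out, because their probe sets name several genes.

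The cells came from the corpus of the mouse stomach and were sorted by flow cytometry on green fluorescent protein reporting Lgr5, a receptor that strengthens Wnt signalling and marks stem cells in several epithelia. There were 6 groups: high, low and negative cells of mice injected with tamoxifen at 0.27 mg per g of body weight 24 h before isolation (4 arrays each), and high, low and negative cells of control mice that carried the same reporter and were not injected (3 arrays each). The strain, sex and age of the mice and the design of the reporter allele are not given in the sources used here. No vehicle-injected mice are among the samples, so drug, injection and sorting run cannot be told apart in any comparison of tamoxifen with control. The design text calls the arrays of a group technical replicates of separate sorting runs, and p-values therefore measure only the spread between those arrays. The control negative arrays are named negative in their titles and in the cell population field, but low in the source field, and were used as negative.

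RNA was measured on 21 microarrays, and every level below is a log2 signal, so that a difference of 1 is a doubling. The label check followed the sort. Lgr5 averaged 8.43 in tamoxifen high and 8.79 in control high cells, 6.70 in tamoxifen low and 7.56 in control low cells, and 4.59 in tamoxifen negative and 4.41 in control negative cells. Because Lgr5 drives the reporter, this is no finding. The pepsinogen C gene Pgc, a defining marker of chief cells, lay at 13.17 to 13.36 in all 6 groups, the negative cells included, and the 9 tuft cell markers averaged 10.31 to 11.12 on the control high arrays. On the tamoxifen high arrays the tuft cell mean was 7.49 to 10.38. Level in all groups, Pgc does not set the high cells apart. It lay close to the highest value on any array, 13.55, where a difference could go unseen. The 7 chief cell markers averaged 8.61 to 9.15 on tamoxifen high and 8.90 to 9.79 on control high arrays. On the negative arrays they averaged 8.30 to 8.51 with tamoxifen and 8.57 to 8.85 in control. Among them Pga5 was lower in high than in negative cells, and Lipf lay at background. Cblif averaged 12.48 in tamoxifen high and 11.13 in tamoxifen negative cells, and 12.64 in control high and 10.98 in control negative cells. Bhlha15, Copz2 and Chia1 also averaged higher in high than in negative cells of both treatments. The 7 mucous neck cell markers averaged 8.25 to 10.16 on tamoxifen high and 8.51 to 10.42 on control high arrays. On the negative arrays these averaged 7.68 to 8.71 with tamoxifen and 9.68 to 9.93 in control. RNA of the high population thus held markers of several cell types, tuft, chief and mucous neck cells among them.

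Complex I takes electrons from NADH and complex II takes them from succinate, and both pass them through ubiquinone to complex III and then through cytochrome c to complex IV, which reduces oxygen. Complexes I, III and IV pump protons out of the matrix, and complex V lets them back in to make ATP. In the oxyntic stomach the acid-secreting parietal cell is known for its dense mitochondria, which feed the proton pump, whereas chief cells are best known for their secretory endoplasmic reticulum. The 13 subunits encoded in mitochondrial DNA could not be followed, since 0 of them had a probe set naming them alone.

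Most subunits were clearly measured. As a guide to background, the 1105 olfactory receptor genes had a median level of 2.52 and a 95th percentile of 4.16. Of the 80 genes, 74 had a mean above that percentile, and the 6 that did not were Cox7b2, Cox8b, Cox8c, Ndufa4l2 and the 2 pseudogenes.

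Across the 6 groups the subunits were lowest in high cells and highest in control low and control negative cells. The median of the 78 subunit means was 8.69 in tamoxifen high and 8.70 in control high cells, 9.16 in tamoxifen low and 9.41 in control low cells, and 9.22 in tamoxifen negative and 9.49 in control negative cells. The lowest of a subunit's 6 group means was that of tamoxifen high cells for 41 subunits and that of control high cells for 18. The highest was that of control low cells for 39 subunits and that of control negative cells for 30. In a moderated F test over the 6 groups (limma, Benjamini-Hochberg adjusted p under 0.05 over all genes), 38 of the 80 genes differed, or 47.5%. The share was 23.7% of all genes and 36.5% of the 12883 genes above the olfactory receptor percentile. By complex, the 38 were 15 of 31 in complex I, 4 of 4 in complex II, 5 of 7 in complex III, 7 of 19 in complex IV (36.8%) and 7 of 17 in complex V (41.2%). The smallest adjusted p belonged to Cox7a1 (4.04e-07), Uqcrc2 (2.88e-05) and Ndufs1 (4.92e-05).

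High cells were lowest in every complex when each subunit was set against its own mean over the 21 arrays. The median of complex I, centred in this way, averaged -0.26 ± 0.07 (SD, n = 4) in tamoxifen high, -0.22 ± 0.24 (n = 3) in control high, 0.01 ± 0.04 in tamoxifen low, 0.32 ± 0.15 in control low, 0.06 ± 0.14 in tamoxifen negative and 0.30 ± 0.10 in control negative cells. That of complex II averaged -0.35 and -0.24 in tamoxifen and control high cells, -0.09 and 0.53 in tamoxifen and control low cells, and -0.02 and 0.38 in tamoxifen and control negative cells. Complexes III, IV and V lay between -0.42 and -0.18 in tamoxifen high, between -0.23 and -0.11 in control high and between 0.26 and 0.40 in control low cells. Among the control high arrays, replicate 1 stood apart, with a median of -0.48 over the 78 subunits against -0.11 and -0.02 on the other 2, and the counts of calls that rest on it are given without it below.

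**Figure D1:**
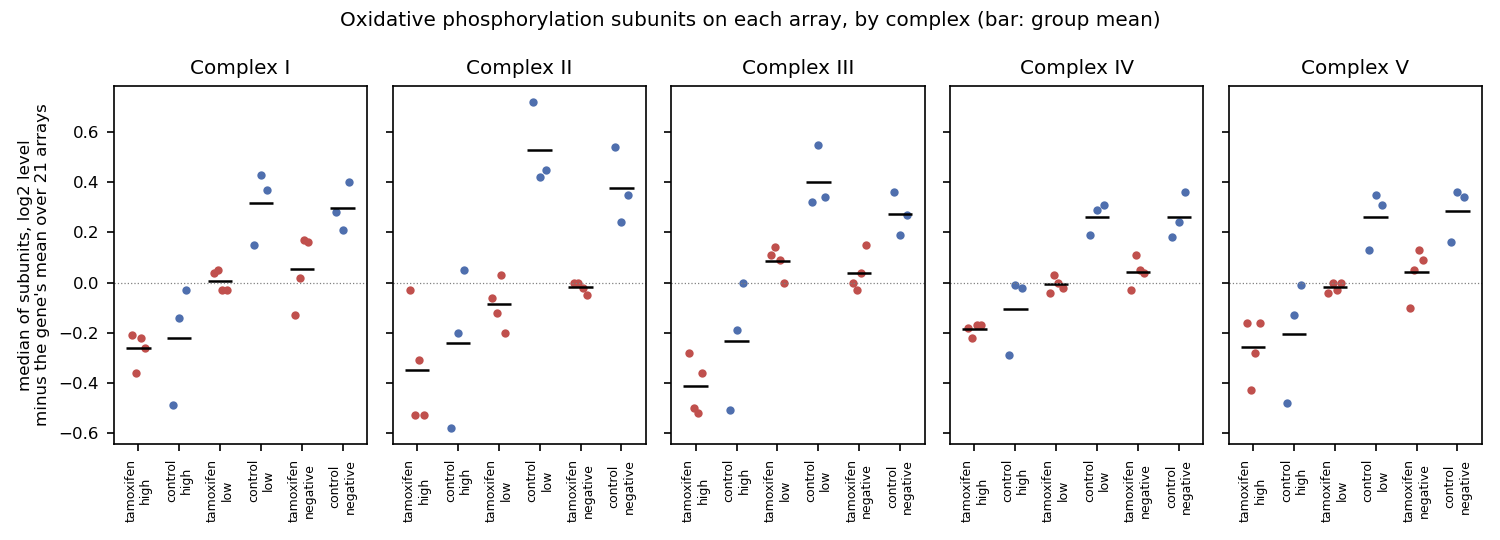
Median level of the subunits of each complex on each of the 21 arrays, as log2 level minus the gene's own mean over all arrays, with 1 panel per complex and the 6 groups on the horizontal axis (red, tamoxifen; blue, control). Points are arrays and the bars are group means; in all 5 panels the means of the 2 high groups lie lowest and those of control low and control negative cells highest.

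High cells of control mice had lower levels of 29 subunits than negative cells and higher levels of none. Among the 29 were the core proteins of complex III, an iron-sulphur and an anchor subunit of complex II and subunits of the peripheral stalk of complex V. Over all genes, 12.3% were called in this comparison and 7.66% were lower, while the 29 make up 36.2% of the 80. Of the 12883 genes above the olfactory receptor level, 1607 were lower. By complex, the lower subunits were 12 of 31 in complex I, 2 of 4 in complex II, 4 of 7 in complex III, 5 of 19 in complex IV and 6 of 17 in complex V. The median difference was -0.45 over the 80 genes and 0.04 over all genes tested. In bulk RNA of this kind, fewer cells of a type and less RNA per cell cannot be told apart.

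Uqcrc2 encodes a core protein of complex III, the dimer that hands electrons to cytochrome c. Its level was 8.64, 8.80 and 8.83 on the control high arrays, against 9.67, 9.72 and 9.79 on the control negative arrays. All 3 high arrays lay below all 3 negative arrays, and the difference was -0.97 ± 0.14 (SE; adjusted p = 0.000126), a 1.96-fold lower level. Its partner core protein Uqcrc1 had 8.35, 8.75 and 8.61 in control high cells, against 9.54, 9.31 and 9.38 in control negative cells (-0.84 ± 0.16, adjusted p = 0.00114). The Rieske iron-sulphur protein Uqcrfs1 differed by -0.51 ± 0.16 (adjusted p = 0.042), a call kept in 1 of the 6 fits that left out an array and in 2 of the 7 other settings. The hinge protein Uqcrh differed by -0.89 ± 0.26 (adjusted p = 0.0236).

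In complex I, the lower subunits came from both of its arms. Ndufv2, an iron-sulphur protein of the NADH-oxidising module, had 7.86, 8.24 and 8.45 in control high cells, against 9.12, 9.22 and 9.24 in control negative cells. The groups did not overlap, and the difference was -1.01 ± 0.19 (adjusted p = 0.000871). Ndufa10, an accessory subunit, had 8.25, 9.08 and 9.18 in control high cells, against 9.85, 9.94 and 10.05 in control negative cells. Its difference was -1.11 ± 0.20 (adjusted p = 0.000548), and control high replicate 1 was far below the other high arrays. Ndufs8, a core iron-sulphur protein that passes electrons toward ubiquinone, differed by -0.99 ± 0.21 (adjusted p = 0.00248). Ndufb8, an accessory subunit of the membrane arm that is often used as a sign of assembled complex I, differed by -0.82 ± 0.23 (adjusted p = 0.0195).

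In complexes II, IV and V the same direction was seen. Sdhd, 1 of the membrane anchors of succinate dehydrogenase, had 7.39, 7.78 and 7.57 in control high cells, against 8.75, 8.47 and 8.75 in control negative cells, without overlap (-1.08 ± 0.23, adjusted p = 0.00326). The iron-sulphur subunit Sdhb differed by -0.80 ± 0.17 (adjusted p = 0.00267). Sdha, the flavoprotein that oxidises succinate, was not lower (0.07), with 9.66, 9.57 and 9.56 in control high cells against 9.44, 9.44 and 9.70 in control negative cells. Sdha overlapped between the groups, and the other anchor, Sdhc, was not called (-0.46, adjusted p = 0.208). In complex IV, Cox4i1 differed by -0.87 ± 0.22 (adjusted p = 0.0118), Cox5a by -0.70 ± 0.16 (adjusted p = 0.00499) and Ndufa4 by -1.20 ± 0.29 (adjusted p = 0.00757). In complex V, Atp5g3, which encodes the ring subunit c, had 9.05, 9.72 and 9.98 in control high cells, against 10.44, 10.71 and 10.74 in control negative cells (-1.05 ± 0.21, adjusted p = 0.00186). Atp5pb of the peripheral stalk differed by -1.0 ± 0.20 (adjusted p = 0.00191), and the catalytic-head subunit Atp5a1 by -0.57 ± 0.14 (adjusted p = 0.00848).

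The groups did not overlap, with high below negative, for 47 of the 80 genes, against 17% of all genes. Leaving out control high replicate 1 left 14 calls, and leaving out control negative replicate 3 left 17. Without control high replicate 1, Uqcrfs1, Uqcrh, Ndufb8, Cox4i1, Ndufa4 and Atp5a1 were not called, and Uqcrh, Ndufb8 and Cox4i1 differed by -0.58, -0.53 and -0.52 (adjusted p = 0.19, 0.165 and 0.098). After cyclic loess normalization 8 of the 29 calls were lost, among them Uqcrfs1, Uqcrh and Ndufb8. The 14 that were kept in every such fit included Uqcrc1, Uqcrc2, Ndufa10, Ndufv2, Sdhb, Sdhd and Atp5g3.

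The same comparison in tamoxifen mice uses other mice and other arrays. There, 17 subunits were lower in high than in negative cells and none higher, where 10.3% of all genes were called and 6.97% were lower. The 17 were 9 of 31 in complex I and 2 in each of complexes II, III, IV and V, and the median difference was -0.36 over the 80 genes and 0.05 over all genes. Of the 17, 16 were also lower in control high cells, which is 94.1% of the tamoxifen calls and 55.2% of the 29 control calls. Over all genes, 845 were lower in high cells of both treatments, which is 54.7% of the 1545 tamoxifen calls and 49.8% of the 1698 control calls. The remaining subunit, Cox6b2, the testis isoform of a complex IV subunit, averaged 3.93 in tamoxifen high cells, under the olfactory receptor percentile, against 4.58 in tamoxifen negative cells (adjusted p = 0.0347), so that the size of its difference is bounded by background.

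Uqcrc2 again led, with 8.80, 8.68, 8.48 and 8.66 on the tamoxifen high arrays, against 9.29, 9.30, 9.46 and 9.67 on the tamoxifen negative arrays (-0.77 ± 0.12, adjusted p = 0.000388). Sdhd had 8.12, 6.99, 7.81 and 7.09 in tamoxifen high cells, against 8.66, 8.26, 8.83 and 8.37 in tamoxifen negative cells (-1.03 ± 0.20, adjusted p = 0.00195). Neither gene overlapped between the groups, although Sdhd varied widely among the high arrays. Ndufs1, the largest iron-sulphur protein of complex I, had 7.51, 6.76, 7.0 and 6.68 in tamoxifen high cells, against 7.69, 7.63, 7.78 and 8.06 in tamoxifen negative cells (-0.80 ± 0.17, adjusted p = 0.00334). Ndufb5, an accessory subunit of the membrane arm, differed by -0.67 ± 0.15, and Ndufs8 by -0.80 ± 0.18 (adjusted p = 0.00574 for both). The groups did not overlap, with high below negative, for 24 of the 80 genes, against 6.17% of all genes. Leaving out tamoxifen negative replicate 3 or replicate 4 left 10 calls, and a fit of these 2 groups alone left 4. After cyclic loess normalization 6 of the 17 calls were lost and the median difference was -0.26.

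**Figure D2:**
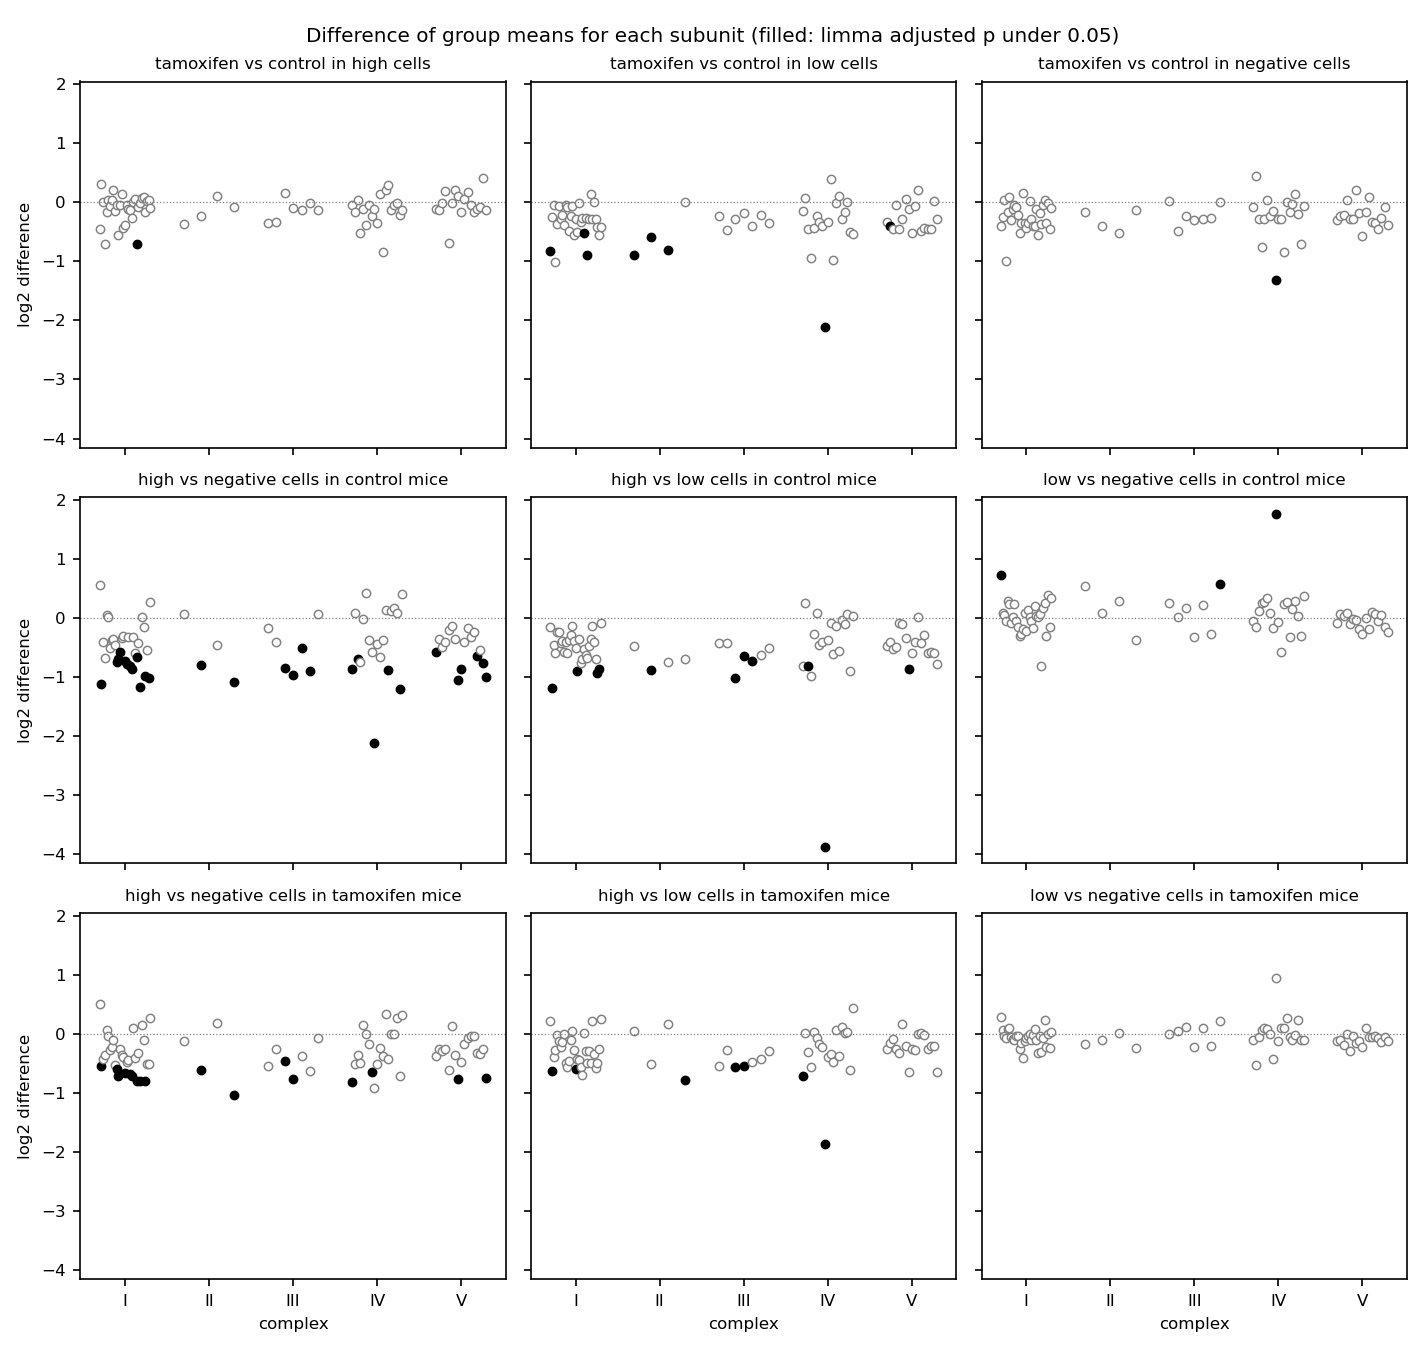
Difference in log2 level for each of the 78 subunits, 1 point per subunit with the complexes set side by side, in 9 comparisons; filled points passed adjusted p under 0.05. The filled points of the high against negative comparisons, 17 in tamoxifen and 29 in control mice, all lie below 0, as do the 8 of tamoxifen against control in low cells.

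Subunits of all 5 complexes were among those lower in high cells. As description only, the promoters of the subunits were read for short motifs of factors known to act on respiratory genes. RefSeq promoter windows (GRCm38.p6, 250 bases before the start site and 50 from it on) were matched for 64 of the 78 subunits, in 69 windows. The NRF1 core GCGCATGC stood on either strand in 14.5% of these windows and in 2.71% of the 32851 windows of the table. The ETS core CCGGAAG, the type of site bound by GABPA, stood in 24.6% of the subunit windows and in 8.86% of all, and the YY1 core AAGATGG in 14.5% and in 6.34%. Among the 12 windows of subunits lower in high cells of both treatments, the 3 motifs stood in 25%, 25% and 33.3%, and among the 44 windows of subunits called in neither comparison in 15.9%, 22.7% and 11.4%. The ETS and YY1 cores can share the letters AAG. A match describes letters in a window and not a bound site. Below, 3 promoters with a match and that of Cox7a1, which has none of the 3 motifs in its window, are shown with the matches in capitals. Sdhb lies at chr4:140961021-140961320 on the plus strand, Uqcrc1 at chr9:108936398-108936697 on the plus strand, Ndufb8 at chr19:44555393-44555692 on the minus strand and Cox7a1 at chr7:30183921-30184220 on the plus strand.
Sdhb: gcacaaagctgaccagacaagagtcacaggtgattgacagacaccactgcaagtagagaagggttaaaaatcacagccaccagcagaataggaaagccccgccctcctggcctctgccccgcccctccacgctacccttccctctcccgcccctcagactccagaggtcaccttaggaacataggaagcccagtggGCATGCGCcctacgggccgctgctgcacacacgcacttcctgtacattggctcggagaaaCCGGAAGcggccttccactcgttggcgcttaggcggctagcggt
Uqcrc1: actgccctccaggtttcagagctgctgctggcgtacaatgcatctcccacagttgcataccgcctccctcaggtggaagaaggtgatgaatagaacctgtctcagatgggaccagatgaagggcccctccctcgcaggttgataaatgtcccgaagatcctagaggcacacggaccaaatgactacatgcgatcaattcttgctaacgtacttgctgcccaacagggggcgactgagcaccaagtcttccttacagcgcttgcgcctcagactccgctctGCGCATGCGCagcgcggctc
Ndufb8: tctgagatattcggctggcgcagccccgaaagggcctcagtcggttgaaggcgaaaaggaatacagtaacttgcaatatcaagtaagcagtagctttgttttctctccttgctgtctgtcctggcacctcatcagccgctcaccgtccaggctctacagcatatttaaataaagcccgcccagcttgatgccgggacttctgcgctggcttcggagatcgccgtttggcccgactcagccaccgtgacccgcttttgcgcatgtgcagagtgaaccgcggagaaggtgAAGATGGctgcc
Cox7a1: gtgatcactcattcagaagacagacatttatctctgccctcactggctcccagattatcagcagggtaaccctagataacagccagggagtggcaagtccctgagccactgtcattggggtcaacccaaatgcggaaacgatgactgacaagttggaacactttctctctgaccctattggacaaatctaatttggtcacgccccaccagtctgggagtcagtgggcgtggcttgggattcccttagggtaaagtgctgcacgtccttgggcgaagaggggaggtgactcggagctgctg
The Sdhb window holds the NRF1 core on the minus strand, starting 54 bases before the start site, and the ETS core 6 bases after it. The capitals of Uqcrc1 are the NRF1 core on both strands, overlapping in a single palindromic run, and those of Ndufb8 are the YY1 core 38 bases after the start site.

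High cells of control mice were also below low cells, in 11 subunits and above them in none, where 1.34% of all genes were called and 0.645% were lower. The 11 were 4 in complex I, 1 in complex II, 3 in complex III, 2 in complex IV and 1 in complex V, and the median difference was -0.47 over the 80 genes and 0 over all genes. These values share the control high arrays with the comparison against negative cells, so the 2 are not separate evidence. Uqcrc1 had 8.35, 8.75 and 8.61 in control high cells, against 9.53, 9.65 and 9.57 in control low cells (-1.01 ± 0.16, adjusted p = 0.00265). Sdhb had 7.11, 7.57 and 7.90 in control high cells, against 8.44, 8.37 and 8.40 in control low cells (-0.88 ± 0.17, adjusted p = 0.00997). The low arrays of both genes were nearly level with each other and above every high array. Cox5a, which joins complex IV early in its assembly, differed by -0.81 ± 0.16 (adjusted p = 0.0111), and Ndufa10 by -1.19 ± 0.20 (adjusted p = 0.00339). For 47 of the 80 genes the high arrays all lay below the low arrays, against 7.81% of all genes. Ndufv1, the subunit that binds NADH and its flavin, was called here (-0.94 ± 0.22, adjusted p = 0.0306) and not against negative cells. The calls fell to 3 without control high replicate 1, to 4 without control low replicate 2 and to 7 without control high replicate 2 or control low replicate 3, and a fit of these 2 groups alone left 2. Of the genes given here with values, Sdhb, Cox5a and Ndufv1 were not called without control high replicate 1.

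In tamoxifen mice, high cells were lower than low cells in 7 subunits and higher in none, where 3.22% of all genes were called and 1.77% were lower, and the median difference was -0.27 over the 80 genes and -0.01 over all genes. The 7 were Cox7a1, Uqcrc2 (-0.55 ± 0.12, adjusted p = 0.0163), Uqcrc1 (-0.57 ± 0.14, adjusted p = 0.0252), Ndufb5, Sdhd, Ndufa10 and Cox4i1. Of these, 4 were also lower in control mice, which is 57.1% of the tamoxifen calls and 36.4% of the 11 control calls; over all genes 33 were, 8.42% and 23.1%. The high arrays lay below the low arrays without overlap for 25 of the 80 genes, against 4.57% of all genes. The count was 2 without tamoxifen low replicate 1, 2 or 3, 3 without tamoxifen low replicate 4, 4 without tamoxifen high replicate 2 and 11 without tamoxifen high replicate 1. Cyclic loess normalization left 1 call, Cox7a1, with the median difference at -0.16, and a fit of these 2 groups alone also left 1.

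**Figure D3:**
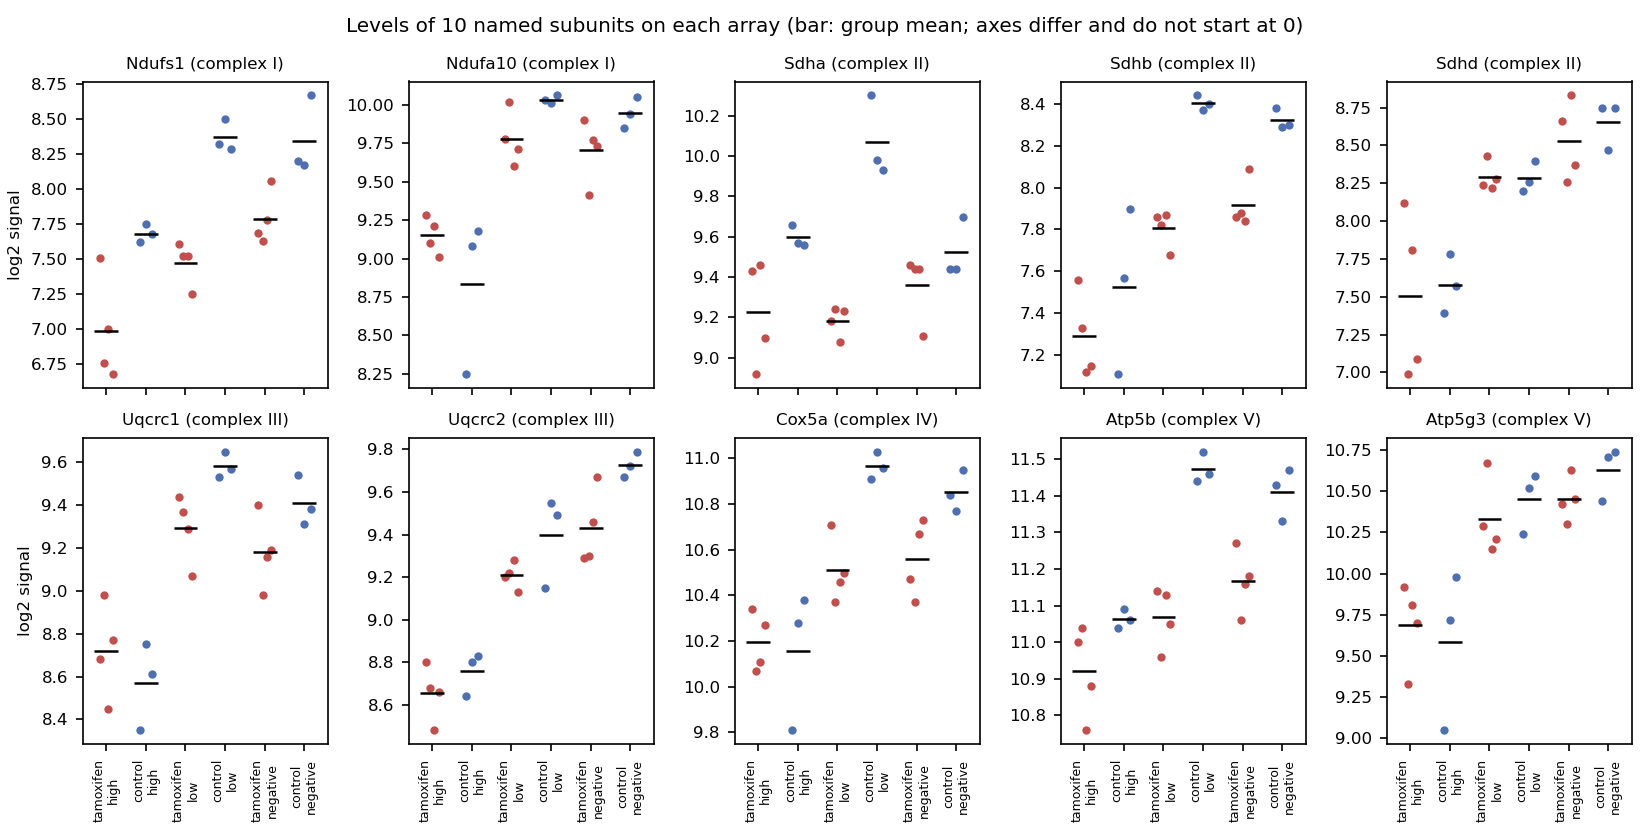
Log2 level of 10 subunits on each array, 1 panel per gene with the 6 groups on the horizontal axis (red, tamoxifen; blue, control), points for arrays and bars for group means. Uqcrc1, Uqcrc2, Sdhb and Atp5g3 are lowest in the high cells of both treatments, whereas Sdha is highest in control low cells.

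Low and negative cells differed little. In control mice 3 subunits were higher in low than in negative cells and none lower, where 5.27% of all genes were called and 1.85% were higher. They were Cox7a1, Ndufa1 and Uqcrq. Ndufa1, a small membrane subunit needed for complex I assembly, had 11.75, 11.82 and 11.38 in control low cells, against 10.86, 10.89 and 11.06 in control negative cells, without overlap (0.72 ± 0.19, adjusted p = 0.0305). Uqcrq, a small ubiquinone-binding subunit of complex III, differed by 0.58 ± 0.17 (adjusted p = 0.0466). Leaving out control low replicate 1 or 2 or any of the control negative arrays left 1 call. In tamoxifen mice limma called none of the 80 genes between low and negative cells, 3 had an unadjusted p under 0.05, and 2.24% of all genes were called; the median difference was -0.05.

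Cox7a1, the heart and skeletal muscle isoform of subunit 7a of complex IV, had the widest range of all members. Its level was 4.70, 6.08, 4.44 and 5.38 on the tamoxifen high arrays, 7.72, 6.96, 6.30 and 7.05 on the tamoxifen low arrays and 6.20, 6.08, 5.95 and 6.03 on the tamoxifen negative arrays. In control mice it was 4.73, 5.52 and 5.52 in high, 9.09, 9.36 and 8.94 in low and 7.28, 7.0 and 7.84 in negative cells. Low cells had the highest mean and high cells the lowest in both treatments, with no overlap among the control groups. Control high cells were 14.7-fold below control low cells (-3.87 ± 0.36, adjusted p = 8.74e-06) and 4.33-fold below control negative cells (-2.11 ± 0.36, adjusted p = 0.000384), and control low cells were above control negative cells (1.76 ± 0.36, adjusted p = 0.00564). In tamoxifen mice high cells were 3.62-fold below low cells (-1.86 ± 0.31, adjusted p = 0.00178), while the differences of high from negative cells (-0.92, adjusted p = 0.0662) and of low from negative cells (0.94, adjusted p = 0.144) did not pass.

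Relatives of Cox7a1 were called in no single comparison. Cox7a2, the form found in most tissues, averaged 9.94 in tamoxifen high and 10.30 in control high cells, 10.33 in tamoxifen low and 10.67 in control low cells, and 10.46 in tamoxifen negative and 10.74 in control negative cells. Cox7a2l, which helps complexes III and IV join, averaged 8.15 to 8.81. Cox8a, the widely expressed form of subunit 8, was not called either and lay at 10.70 to 10.99 in all groups. The muscle isoform Cox6a2 had group means of 4.41 to 4.83 and the lung isoform Cox4i2 4.13 to 4.73, both near the olfactory receptor percentile, and neither passed the F test (adjusted p = 0.422 and 0.0962). The muscle isoform Cox8b and the testis isoform Cox8c stayed below that percentile in every group. Ndufa4l2, which is induced by low oxygen in other cells, had means of 3.24 to 3.81.

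**Figure D4:**
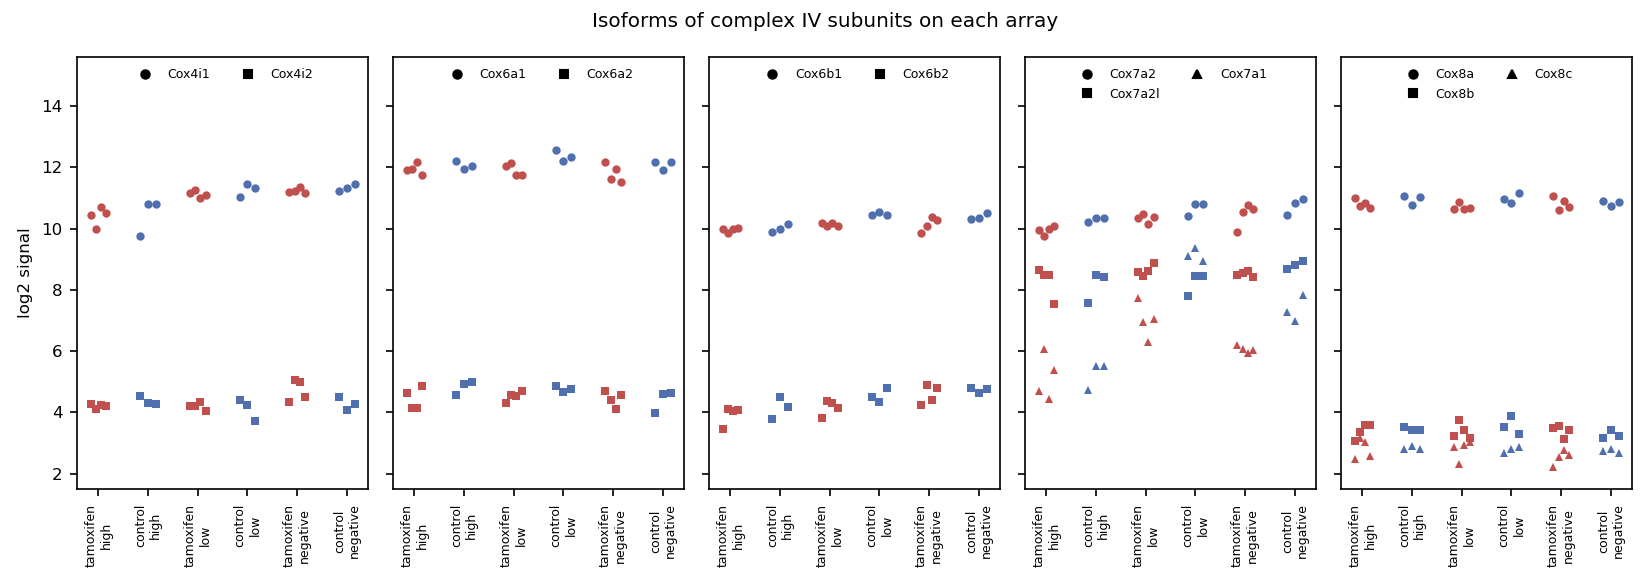
Log2 level of the isoforms of 5 complex IV subunits on each array, with 1 panel per subunit, a marker shape per isoform and the 6 groups on the horizontal axis (red, tamoxifen; blue, control). Cox7a1 spans 4.44 to 9.36, whereas Cox8a stays between 10.62 and 11.16 and Cox8b and Cox8c lie at background.

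With tamoxifen, 8 subunits were lower in low cells and none was higher: Cox7a1, Sdha, Sdhb, Sdhc, Ndufs1, Ndufa1, Ndufc1 and Atp5b. The comparisons with control share the control arrays with those between control populations, so their values stand side by side and not as separate evidence. Over all genes 8.32% were called in this comparison and 2.98% were lower, against 10% of the 80. Of the 12883 genes above the olfactory receptor level 13.5% were called, with 611 lower. By complex, the lower subunits were 3 of 31 in complex I, 3 of 4 in complex II, 0 of 7 in complex III, 1 of 19 in complex IV and 1 of 17 in complex V. The median difference was -0.29 over the 80 genes, with 69 of them below 0, and 0.01 over all genes.

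Cox7a1 averaged 7.01 in tamoxifen low and 9.13 in control low cells, with every tamoxifen array below every control array, a 4.36-fold lower level (-2.12 ± 0.34, adjusted p = 0.000405). Sdha had 9.18, 9.24, 9.08 and 9.23 in tamoxifen low cells, against 10.30, 9.98 and 9.93 in control low cells (-0.89 ± 0.15, adjusted p = 0.000777). Sdhb had 7.86, 7.82, 7.87 and 7.68 in tamoxifen low cells, against 8.44, 8.37 and 8.40 in control low cells (-0.59 ± 0.16, adjusted p = 0.0213). In both genes the 2 groups were tight and separate. The membrane anchor Sdhc had 8.51, 8.41, 8.67 and 8.03 in tamoxifen low cells, against 9.61, 8.95 and 9.07 in control low cells (-0.81 ± 0.20, adjusted p = 0.0138). Sdhd, the other anchor, had 8.24, 8.43, 8.22 and 8.28 in tamoxifen low cells, against 8.20, 8.26 and 8.40 in control low cells, so that its groups overlapped (0.01, adjusted p = 0.993).

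Ndufs1 had 7.61, 7.52, 7.52 and 7.25 in tamoxifen low cells, against 8.32, 8.50 and 8.29 in control low cells (-0.89 ± 0.18, adjusted p = 0.00364). Ndufa1 had 11.03, 10.47, 10.89 and 10.89 in tamoxifen low cells, against 11.75, 11.82 and 11.38 in control low cells (-0.83 ± 0.18, adjusted p = 0.00528). Neither gene overlapped between the groups. Ndufc1, a small membrane subunit of complex I, differed by -0.53 ± 0.15 (adjusted p = 0.0356). Atp5b, the catalytic beta subunit of ATP synthase, had 11.14, 10.96, 11.13 and 11.05 in tamoxifen low cells, against 11.44, 11.52 and 11.46 in control low cells (-0.40 ± 0.12, adjusted p = 0.0344). The difference of Atp5b was 1.32-fold, with the groups apart.

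The groups did not overlap, with tamoxifen below control, for 32 of the 80 genes, against 9.06% of all genes. The count was 4 without control low replicate 1 and 5 without control low replicate 2 or tamoxifen low replicate 4, and Cox7a1, Ndufa1, Ndufs1 and Sdha were called in each such fit. Of the 7 fits that left out an array, Sdhc was called in 6, Sdhb in 3, Atp5b in 1 and Ndufc1 in 0. The count was 16 after cyclic loess normalization, with the member median at -0.40.

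In high cells and in negative cells 1 subunit each was called with tamoxifen. In high cells limma called Ndufs1 lower and no other subunit, where 2.73% of all genes were called and 1.04% were lower, and the median difference was -0.08. Without overlap, 5 of the 80 genes lay lower, against 4.6% of all genes. Ndufs1 had 7.51, 6.76, 7.0 and 6.68 in tamoxifen high cells, against 7.62, 7.75 and 7.68 in control high cells, a narrow separation of the groups (-0.70 ± 0.18, adjusted p = 0.0421). This call was kept in 1 of the 7 fits that left out an array, with adjusted p up to 0.146. In negative cells Cox7a1 alone was called lower, where 2.32% of all genes were called and 0.703% were lower. It had 6.20, 6.08, 5.95 and 6.03 in tamoxifen negative cells, against 7.28, 7.0 and 7.84 in control negative cells (-1.31 ± 0.34, adjusted p = 0.0417). The groups were apart, but the call was lost in each of the 7 fits with an array left out. The median difference in negative cells was -0.24, with 66 of the 80 genes below 0, and 0 over all genes. Without overlap, 20 of the 80 genes lay lower in negative cells, against 7.38% of all genes.

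Whether the tamoxifen difference itself varied between populations was tested with interaction terms, and limma called none of the 80 genes in any of the 3. In high minus negative cells 5 had an unadjusted p under 0.05 and 0.248% of all genes were called, in low minus negative cells 1 and 0.839%, and in high minus low cells 8 and 0.0271%. For Cox7a1 the tamoxifen difference in high cells minus that in low cells was 2.02 ± 0.47 (adjusted p = 0.231). The subunits called in low cells are therefore not shown to respond differently there from high or negative cells.

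Genes around the respiratory chain were read from lists chosen with earlier results of these data known. In low cells with tamoxifen, 3 of 12 citric acid cycle genes were lower and none higher: Ogdh (-0.98, adjusted p = 0.000502), Suclg2 (-0.78, adjusted p = 0.00106) and Dld (-0.68, adjusted p = 0.00598). Ogdh and Dld encode parts of the oxoglutarate dehydrogenase complex, which supplies NADH to complex I, and Suclg2 a subunit of the enzyme that makes succinate, the substrate of complex II. Of 17 regulators of mitochondrial gene expression 1 was lower, the orphan nuclear receptor Esrrg, which averaged 7.32 in tamoxifen low and 8.67 in control low cells (-1.34, adjusted p = 0.00279), and 6.52 in tamoxifen negative and 7.91 in control negative cells (-1.39, adjusted p = 0.00618). The coactivator Ppargc1a averaged 7.22 in tamoxifen low and 7.19 in control low cells. In high cells it averaged 7.32 ± 0.95 (SD) with tamoxifen and 5.99 ± 0.97 in control. In negative cells it averaged 6.34 ± 1.02 with tamoxifen and 5.91 ± 0.11 in control, and it was called with tamoxifen in no population. Of 16 genes of pyruvate entry and carriers, Pdk4, a kinase that shuts off pyruvate dehydrogenase, was higher in low cells (2.97, adjusted p = 0.0173), in high cells (4.04, adjusted p = 0.0066) and in negative cells (3.78, adjusted p = 0.00949). In high cells Vdac3, a channel of the outer mitochondrial membrane, was lower (-0.87, adjusted p = 0.0221).

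Of 14 glycolysis genes, Ldhb, the lactate dehydrogenase subunit common in oxidative tissue, was lower in low cells (-1.11, adjusted p = 0.000551) and in negative cells (-1.24, adjusted p = 0.000613). Suclg2 was also lower in negative cells (-0.58, adjusted p = 0.0266). Of the assembly lists, 0 of 14 complex I, 0 of 15 complex IV and 0 of 4 complex V genes were called in any population, and of 10 complex II and III assembly genes Uqcc3 was higher in low cells (0.63, adjusted p = 0.0186). None of 8 uncoupling and alternative electron entry genes or of the 3 chain genes outside the symbol rule (Ndufab1, Cyc1 and Cycs) was called with tamoxifen in any population.

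Between high and negative cells more genes of these lists were called, and so were more of all genes. Over all genes, 12.3% were called in control mice, with 7.66% lower in high cells. In tamoxifen mice 10.3% were called, with 6.97% lower. In control high cells 7 of 12 citric acid cycle genes, 8 of 14 complex I assembly genes, 6 of 15 complex IV assembly genes, 2 of 4 complex V assembly genes, 1 of 10 complex II and III assembly genes and 5 of 8 uncoupling and alternative entry genes were lower than in negative cells, and none of these was higher. Of the 17 regulators 2 were lower, of the pyruvate and carrier genes 2 were higher and 5 lower, and of the glycolysis genes 2 were higher and 3 lower. Fh1, the fumarase that uses the product of complex II, averaged 7.90 in control high and 9.49 in control negative cells (-1.59, adjusted p = 1.36e-05). Cyc1, the cytochrome c1 of complex III, averaged 9.02 in tamoxifen high and 9.77 in tamoxifen negative cells (-0.75, adjusted p = 0.00135), and 8.77 in control high and 9.86 in control negative cells (-1.09, adjusted p = 0.000119). In tamoxifen high cells 7 of 12 citric acid cycle genes and 3 of 14 complex I assembly genes were lower than in negative cells. Atpif1, the inhibitor that keeps complex V from running backward, averaged 10.20 in tamoxifen high and 10.81 in tamoxifen negative cells (-0.60 ± 0.12, adjusted p = 0.00261), and 10.38 in control high and 11.31 in control negative cells (-0.92 ± 0.14, adjusted p = 0.000144).

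Markers of other cell types moved with several of these results, and their part in them was not tested. Of 14 parietal cell markers, 6 were lower with tamoxifen in low cells, 3 in high cells and 4 in negative cells, and none was higher. Their mean level per array ran from 5.99 to 6.66 in tamoxifen high and 6.83 to 6.99 in control high cells, from 7.05 to 7.56 in tamoxifen low and 8.20 to 8.67 in control low cells, and from 6.25 to 7.15 in tamoxifen negative and 7.30 to 7.71 in control negative cells. Summed on the linear scale they came to 2235 to 3479 in tamoxifen high and 4329 to 5768 in control high cells, 4895 to 7732 in tamoxifen low and 14470 to 17380 in control low cells, and 3033 to 5775 in tamoxifen negative and 7615 to 9769 in control negative cells. The proton pump subunit Atp4a differed with tamoxifen by -2.92 (adjusted p = 0.00132) in high, -1.45 (adjusted p = 0.0504) in low and -1.95 (adjusted p = 0.0231) in negative cells. Between 1 and 3 of the 14 lay under the olfactory receptor percentile in each group. Of 7 mucous neck cell markers, 3 were lower with tamoxifen in low cells and 4 in negative cells, and none was higher. Their mean level per array was 7.50 to 9.0 in tamoxifen low and 9.31 to 10.17 in control low cells, and 7.68 to 8.71 in tamoxifen negative and 9.68 to 9.93 in control negative cells. Of 7 chief cell markers, 2 were lower in low cells and none higher, with means of 8.71 to 9.0 in tamoxifen low and 9.71 to 10.03 in control low cells. Of 12 endocrine cell markers, 3 were lower in low cells and none higher, with means of 5.19 to 7.39 in tamoxifen low and 6.58 to 8.48 in control low cells. In negative cells the endocrine means ran mostly the other way, 7.77 to 9.33 in tamoxifen and 6.93 to 7.79 in control arrays. Surface pit cell means were 9.66 to 10.46 in tamoxifen low and 9.12 to 9.86 in control low cells. In negative cells the surface pit means were 11.01 to 11.47 with tamoxifen and 11.66 to 11.73 in control.

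Between populations the parietal markers were lower in high than in low cells (4 of 14 in tamoxifen and 6 of 14 in control mice, none higher). In high against negative cells 1 was higher and 2 lower in tamoxifen mice, and 1 was higher and 4 lower in control mice. In low against negative cells 1 was higher in tamoxifen mice and 3 in control mice. The 9 tuft cell markers were higher in high than in negative cells, with 8 of 9 called in each treatment, and their mean level per array was 7.49 to 10.38 in tamoxifen high and 10.31 to 11.12 in control high cells, against 5.45 to 6.54 in tamoxifen negative and 6.50 to 7.75 in control negative cells. With tamoxifen all 9 were lower in low cells and 0 were called in high cells. Their mean level per array was 5.04 to 6.71 in tamoxifen low and 8.34 to 9.79 in control low cells. Of 8 surface pit cell markers 7 were lower and 1 higher in tamoxifen high than in tamoxifen negative cells, and 6 were lower and 1 higher in control high than in control negative cells. The 1 higher in tamoxifen mice was Gkn3, which averaged 11.48 in high and 8.31 in negative cells. Of the endocrine cell markers, 9 were lower in tamoxifen high than in tamoxifen negative cells and 5 in control high than in control negative cells.

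**Figure D5:**
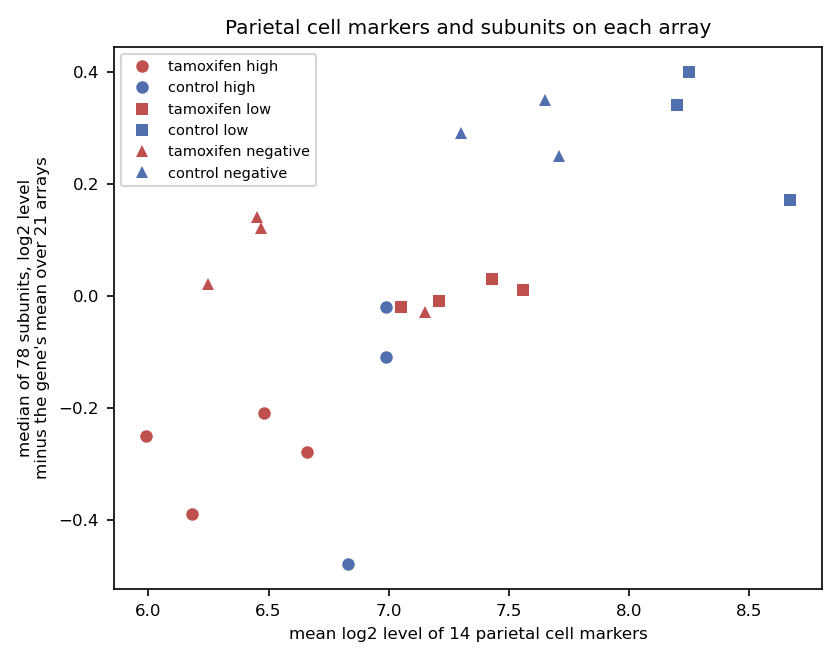
Median centred log2 level of the 78 subunits on each array (vertical axis) against the mean log2 level of 14 parietal cell markers (horizontal axis), with colour for treatment and shape for population. The 3 control low arrays lie at the right, between 8.20 and 8.67, where the subunit medians are 0.17 to 0.40. The subunit medians of the tamoxifen high arrays lie between -0.39 and -0.21 and those of the control high arrays between -0.48 and -0.02. The tamoxifen negative arrays, at parietal means of 6.25 to 7.15, have subunit medians of -0.03 to 0.14. The control negative arrays, at 7.30 to 7.71, have subunit medians of 0.25 to 0.35.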

How the data were processed

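The deposited table holds log2 signal per probe set on 21 arrays, made by the authors. Per the submitters' processing notes the tools were RMA, oligo, limma 3.26.8 and R 3.2.3, whose roles and order are not stated. The array platform's build is not given in the sources used here. Values ran from 0.958 to 13.55 and array medians from 3.95 to 4.25. Of 41345 probe sets, 23521 were listed with 1 gene, 1814 with several and 16010 were not listed; symbols were updated by gene number for 23328. The brightest probe set of each gene by mean over 21 arrays was kept (9 members had more than 1), which left 22180 genes with no filter on level.

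Group means were fitted with limma 3.58.1 in R 4.3.3 (lmFit and eBayes, 15 residual and 5.27 prior degrees of freedom), with 12 two-sided comparisons and an F test over 5 differences. A gene was called at a Benjamini-Hochberg adjusted p under 0.05 over all genes. SE is the model's and SD that of a group's arrays. The steps were tested on simulated data. Arrays of a group correlated at 0.944 to 0.991, and the number of arrays limits the precision.

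Members, gene lists and naming rules were chosen with earlier results of these data known. Members were named if among the 5 called ones with the smallest adjusted p each way in a comparison, in a panel of core subunits, in an isoform pair of complex IV, or by F test or brightness within a complex; of each pathway list, up to 3 called genes per tamoxifen comparison were named. Further members and Ppargc1a, Fh1, Cyc1 and Atp4a were named after their values were seen. The titles give a replicate number and a further unexplained number, which pair alike in all groups but tamoxifen negative. Deviations from group means of same-numbered control arrays correlated at 0.222 to 0.317 between high and low cells. They correlated at 0.107 to 0.233 between control low and negative cells and 0.0918 to 0.172 between control high and negative cells. Same-numbered control arrays thus tended to deviate alike, and the main fit takes no account of it. The correlations were -0.161 to 0.32 between tamoxifen populations (-0.158 to 0.411 by the further number) and -0.184 to 0.177 across treatments. The block was an alternative, beside cyclic loess, averaged probe sets per gene, a trended and robust eBayes, only the groups compared, a filter on the dimmest 25 percent of genes, a random block and leaving out each array. Promoter windows are RefSeq's for GRCm38.p6.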

Additional observations from a re-analysis of the deposited data

Results flagged for a closer look

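A single array lay far from the others of its tamoxifen group in 8 of 141 groups of 4 arrays tested, by Dixon's ratio of the gap to the range. The 141 covered the named subunits and the centred medians of each complex and of all subunits. All 8 flags fell on single subunits. Chance gives about 1 in 20, or 7.05 here. In tamoxifen high cells, Cox6b2 was 3.45 on replicate 1 (the others 4.06 to 4.11), Cox7a2l was 7.54 on replicate 4 (8.47 to 8.64) and Ndufv1 was 7.96 on replicate 2 (7.73 to 7.76). In tamoxifen low cells Cox8a was 10.87 on replicate 2 (10.63 to 10.66). In tamoxifen negative cells Sdha was 9.11 and Sdhb 8.09 on replicate 4 (9.44 to 9.46 and 7.84 to 7.88 on the others), Uqcrq was 9.04 on replicate 1 (9.42 to 9.45), and Ndufa4l2, at background, was 2.81 on replicate 3 (3.50 to 3.56). Sdha and Sdhb deviated in opposite directions on the same array.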

How the results depend on the processing

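No called result changed direction. The count of subunits that differ among the 6 groups, 38, lay between 36 and 45 in the other settings. In tamoxifen against control, a fit of only the groups compared called 0 in high cells (1 in the fit of all groups), and in low cells cyclic loess called 16 and the replicate block over both treatments 15 (8 without). Only the groups compared gave 2 in control high against low cells (11), 4 in tamoxifen high against negative cells (17) and 1 in tamoxifen high against low cells (7), where cyclic loess also gave 1. Fewer arrays in a fit leave fewer degrees of freedom; the cause of the other moves was not tested. The block within a treatment gave 27 in control high against negative cells (29), 2 in control low against negative cells (3) and 11 in control high against low cells (11); for the tamoxifen populations it gave 20 (17), 0 (0) and 9 (7), where the arrays share only a number. By the further title number the block gave 28, 3 and 12 in control and 23, 0 and 10 in tamoxifen mice (high against negative, low against negative, high against low cells), without Ndufa10, Ndufa8 and Uqcrc1 in tamoxifen high against negative and Sdhd in tamoxifen high against low cells. Leaving out 1 array at a time gave 0 to 2 in tamoxifen against control high cells, 4 to 8 in low and 0 to 0 in negative cells. It gave 14 to 29 in control high against negative, 1 to 3 in control low against negative, 3 to 13 in control high against low, 10 to 20 in tamoxifen high against negative, 0 to 1 in tamoxifen low against negative and 2 to 11 in tamoxifen high against low cells. The 3 interactions stayed at 0. Of the tamoxifen differences of single named genes over all settings, 27 lost and 12 gained a call. Besides the 6 genes named as near background, Cox6b2, Cox4i2 and Ndufs5 had a group mean under the olfactory receptor percentile.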

Other observations

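A few subunits varied more among the arrays of a group than the rest. The pooled within-group SD of the log2 level was 0.75 for Cox7b, 0.667 for Ndufa12, 0.596 for Cox5b and 0.492 for Ndufb3, against a median of 0.231 over the 78 subunits and 0.272 over all genes. These genes were chosen after their values were seen. They deviated the same way on several arrays: Cox7b, Ndufa12, Cox5b and Ndufb3 lay 1.44, 1.03, 0.83 and 0.84 below the group mean on tamoxifen negative replicate 1, and 1.11, 1.07, 0.85 and 0.70 above it on tamoxifen negative replicate 4. On tamoxifen high replicate 4 they lay 1.18, 0.95, 0.86 and 0.95 above the mean. On tamoxifen high replicate 1 and tamoxifen low replicate 1 their signs were mixed. Ndufb11, the next in spread beside Cox7a1 (pooled SD 0.43), went the other way. It deviated by 0.37 on tamoxifen negative replicate 1, -0.39 on tamoxifen negative replicate 4 and -0.53 on tamoxifen high replicate 4. No single comparison called Cox7b, Ndufa12, Cox5b or Ndufb3. The 2 probe sets of Cox5b differed in direction with tamoxifen, at -0.52 and 0.34 in high cells and at -0.76 and 0.15 in negative cells, and not in low cells (-0.94 and -0.44).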
